A study of Mus musculus with 19 samples.

Results

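The effect of the anti-miR-mix on gene expression was examined in the CA1 region of the aged mouse hippocampus, the field whose pyramidal neurons form the main output of the hippocampus. The comparison used the 13 libraries described as old control (n = 6) and old anti-miR-mix (n = 7), out of 19 libraries in all, the other 6 being from young mice. Both groups were male C57B/6J mice of 16.5 months without a transgene, and both received lipid nanoparticles into the dorsal hippocampus by bilateral stereotaxic injection. The nanoparticles held scrambled control oligonucleotides in old control mice and a mixture of inhibitors of 3 microRNAs, namely miR-146a-5p, miR-181a-5p, and also miR-148a-3p, in old anti-miR-mix mice. Injection itself is therefore shared by both groups. The mice were tested in a water maze before CA1 was microdissected, so each library holds RNA of neurons, glia, vessels and blood-borne cells together, and in such bulk tissue more cells of a type and more RNA per cell cannot be told apart. Genes were kept when at least 5 reads were counted in at least 50% of the 13 libraries, which left 19346 of 48709 annotated genes. The 7 old anti-miR-mix libraries alone could meet this filter, and the 6 old controls alone could not. Genes with few reads could thus enter through the treated group, which can favour higher values among them.

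MicroRNAs are short RNAs that pair through their seed, bases 2 to 8, with sites in messenger RNAs and thereby lower their stability or translation. An inhibitor is an oligonucleotide of complementary sequence that occupies the microRNA. Of the 3 microRNAs, miR-146a-5p is known as a brake on Toll-like receptor and NF-kB signalling through Irak1 and Traf6. In an immortalized microglia line, however, the study reported by qPCR that a synthetic mimic of this microRNA raised Il1b, Il6 and Tnf and lowered Il10. The microRNA miR-181a-5p is known in lymphocytes and at synapses, and miR-148a-3p in lymphoid and metabolic tissue. Microglia, the resident macrophages of the brain, take up debris and dying synapses, and when activated they raise a known programme of receptors, lysosomal enzymes and complement.

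The mature microRNAs (RefSeq, GRCm38.p6) are shown because the treatment is defined by them, with bases 2 to 8 in capitals. Mir146 lies at chr11:43374435-43374456 on the minus strand, Mir148a at chr6:51269829-51269850 on the minus strand, and miR-181a-5p comes from Mir181a-1 at chr1:137966468-137966490 and Mir181a-2 at chr2:38852741-38852763, both on the plus strand.
miR-146a-5p: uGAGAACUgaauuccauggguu
miR-148a-3p: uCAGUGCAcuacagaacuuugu
miR-181a-5p: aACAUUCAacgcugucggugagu
No seed is shared between the 3 microRNAs. The inhibitors used in the study are given with the stretch that pairs with the seed in capitals.
inhibitor of miR-146a-5p: acccatggaattcAGTTCTC
inhibitor of miR-148a-3p: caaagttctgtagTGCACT
inhibitor of miR-181a-5p: actcaccgacagcgtTGAATG
control oligonucleotide: taacacgtctatacgccca
Each inhibitor was an exact complement of its microRNA. The one against miR-146a-5p covered bases 2 to 21 and thus all 7 seed bases, whereas those against miR-148a-3p (bases 3 to 21) and miR-181a-5p (bases 3 to 23) covered 6 of 7. The control oligonucleotide was complementary to 0 of the 3 microRNAs over any stretch of 7 bases. Mature microRNAs are not measured in these libraries of polyadenylated RNA, so inhibition itself could not be checked here. The study reported by qPCR that the targeted microRNAs were still lowered in the injected hippocampal CA region when the experiment ended. Their levels in the dentate gyrus were reported as unchanged.

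Library sizes ranged from 26803147 to 38908947 reads assigned to genes, and 99.95% of the reads fell on the genes tested. Old control replicates 5 and 6 stood apart from every other pair. Their counts differed by a chi-square per degree of freedom of 2.18, where the next lowest of all pairs among the 13 libraries was 6.09 and the highest 40.5 (12795 genes). These replicates may share a source, which was not tested, so main results are also given with them merged into 1 library. A deposited table of log2 values had been adjusted by a number from 1 to 4 per library, termed the processing group below, whose source is not described. Old controls fell 2, 2, 0 and 2 into groups 1 to 4 and old anti-miR-mix libraries 1, 2, 3 and 1, so group 3 has no control. Results are also given after adjustment for processing group in the fit. That estimate rests on groups 1, 2 and 4, where controls are compared with treated replicates 1, 2, 6 and 7 only. Treated replicates 3, 4 and 5 add nothing to it, so adjusted and unadjusted values rest on different libraries. CA1 identity was checked with marker genes. Wfs1, a CA1 pyramidal marker, lay between 172 and 263 CPM (counts scaled to the library total) in all 13 libraries. Prox1, a marker of the neighbouring dentate granule cells, lay between 24.7 and 56.6 CPM and Enpp2, abundant in choroid plexus and oligodendrocytes, between 202 and 336 CPM. Both genes are also made by cells within CA1, interneurons and oligodendrocytes respectively, and the share of neighbouring tissue was not tested.

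The comparison of the old groups asked which genes differ when the 3 microRNAs are blocked. Genes of microglia and of other myeloid cells were higher under anti-miR-mix, among them Tyrobp, Trem2, Ctsd, C1qa, C1qb, C1qc, Cd68, Itgax, Spp1 and Cst7. No gene was lower at the same threshold. In edgeR's quasi-likelihood test, 48 genes (0.248% of those tested) were higher and 0 (0%) were lower at an adjusted p under 0.05. At an unadjusted p under 0.05, 1296 genes (6.7%) were higher and 717 (3.71%) lower. The median log2 fold change of the 48 genes was 0.66, with a range from 0.24 (Ctsl) to 2.39 (Cd300lb), while the median over all genes tested was -0.01. For 31 of the 48 genes every anti-miR-mix library lay above every control library, and over all genes this held for 73 (0.377%), with the reverse order for 17 (0.0879%).

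The number of genes past the threshold depended strongly on the fit and on single libraries. With old control replicates 5 and 6 merged it was 5 (0.0258% of genes), namely Arl11, Tyrobp, Arhgap45, Ucp2 and Lag3. After adjustment for processing group it was 2 (0.0103%), Tyrobp and Spp1, and with both changes 1. DESeq2, another count test, called 298 genes higher (1.54%) and 17 lower (0.0879%). At an unadjusted p under 0.05 the shares of higher and lower genes were 5.48% and 2.74% with the merged library, 3.88% and 3.24% after adjustment for processing group, and 6.52% and 3.08% in DESeq2. With 1 library left out, edgeR called from 0 genes (without old control replicate 1) to 223 (without old anti-miR-mix replicate 1). The 48 genes were chosen as higher on these same libraries, so their signs and medians under other fits describe them only. All 48 genes kept a log2 fold change above 0 when replicates 5 and 6 were merged, after adjustment for processing group and in each of the 13 fits that left out 1 library. Their median log2 fold change was 0.67 with the merged library. With the processing group number as a linear term it was 0.65, and 6 genes passed. After adjustment for processing group, as used elsewhere in the text, the median was 0.46. That fit compares controls with treated replicates 1, 2, 6 and 7 only.

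**Figure D1:**
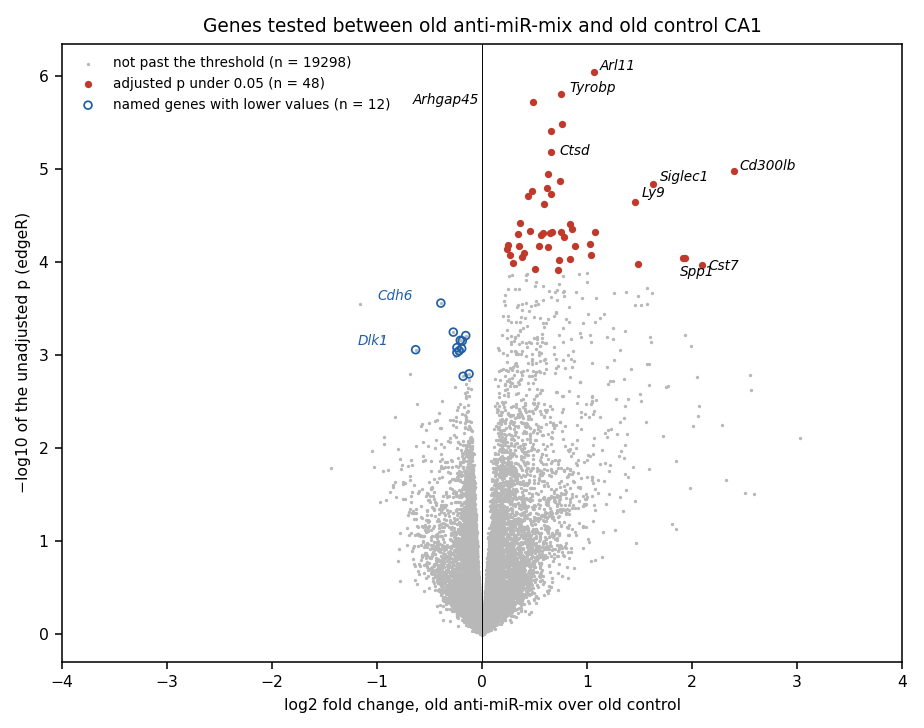
Log2 fold change (x axis, old anti-miR-mix over old control) against −log10 of the unadjusted p in edgeR (y axis) for 19346 genes. Red points are the 48 genes past the adjusted threshold, all to the right of 0, and blue circles the 12 named genes with lower values, none of which passed it.

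Among the leading genes, Tyrobp encodes the adaptor that carries the signal of Trem2 and of other activating receptors in microglia (ENSMUSG00000030579, chromosome 7, 30413760 to 30417585, plus strand). Its level was 16.3, 16.2, 20.3, 19.9, 18.8 and 19.5 CPM in old control replicates 1 to 6 and 24.1, 34.4, 35.0, 36.3, 34.1, 24.6 and 28.3 CPM in old anti-miR-mix replicates 1 to 7. The groups did not overlap, and treated replicates 1 and 6 were the lowest of their group. The log2 fold change was 0.75 (edgeR adjusted p = 0.0124, SE 0.10). Tyrobp passed the threshold with the merged library (adjusted p = 0.0377) and after adjustment for processing group (log2 fold change 0.54, adjusted p = 0.0115), and in 12 of 13 fits without 1 library, the exception being at 0.0535.

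Arl11, which encodes a small GTPase of the ARF family (ENSMUSG00000043157, chromosome 14, 61309753 to 61311936, plus strand), ranged from 0.696 to 0.830 CPM in old control (median 0.778) and from 1.28 to 1.97 CPM in old anti-miR-mix libraries (median 1.75). This was the lowest p of all genes (log2 fold change 1.06, edgeR adjusted p = 0.0124, SE 0.14), on 20 to 68 reads per library. Arhgap45, a GTPase-activating protein of blood cells, ranged from 10.4 to 12.6 CPM in control and from 14.7 to 19.4 CPM in treated libraries (log2 fold change 0.49, SE 0.07). Neither gene overlapped between groups, and neither passed after adjustment for processing group (adjusted p = 0.071 and 0.0759 in edgeR). Ucp2, a mitochondrial carrier protein, had a log2 fold change of 0.76 (SE 0.11) and Lag3, an inhibitory receptor that binds MHC class II, one of 0.66 (SE 0.10). Ucp2 overlaps Dnajb13 on the opposite strand, and as the strand setting of the counting is not given, their reads may not be separable.

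The leading genes also included cell surface receptors and a cytosolic sensor. Siglec1, a lectin of macrophages that binds sialic acid, ranged from 0.728 to 1.69 CPM in control (median 1.25) and from 1.71 to 6.77 CPM in treated libraries (median 3.57), with treated replicate 4 the highest and replicate 6 the lowest. Its log2 fold change was 1.63 (edgeR adjusted p = 0.0269, SE 0.27). Csf3r, the receptor of granulocyte colony-stimulating factor, ranged from 8.88 to 12.4 CPM in control and from 13.4 to 19.6 CPM in treated libraries. Fcrls, a receptor enriched in microglia, ranged from 22.5 to 28.0 CPM and from 29.9 to 50.4 CPM. Naip6, a sensor protein of the NAIP family, was the only one of the 12 leading genes whose groups overlapped, and 6 of 7 treated libraries lay above the highest control. Adjusted p after adjustment for processing group was between 0.071 and 0.173 for these 4 genes.

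**Figure D2:**
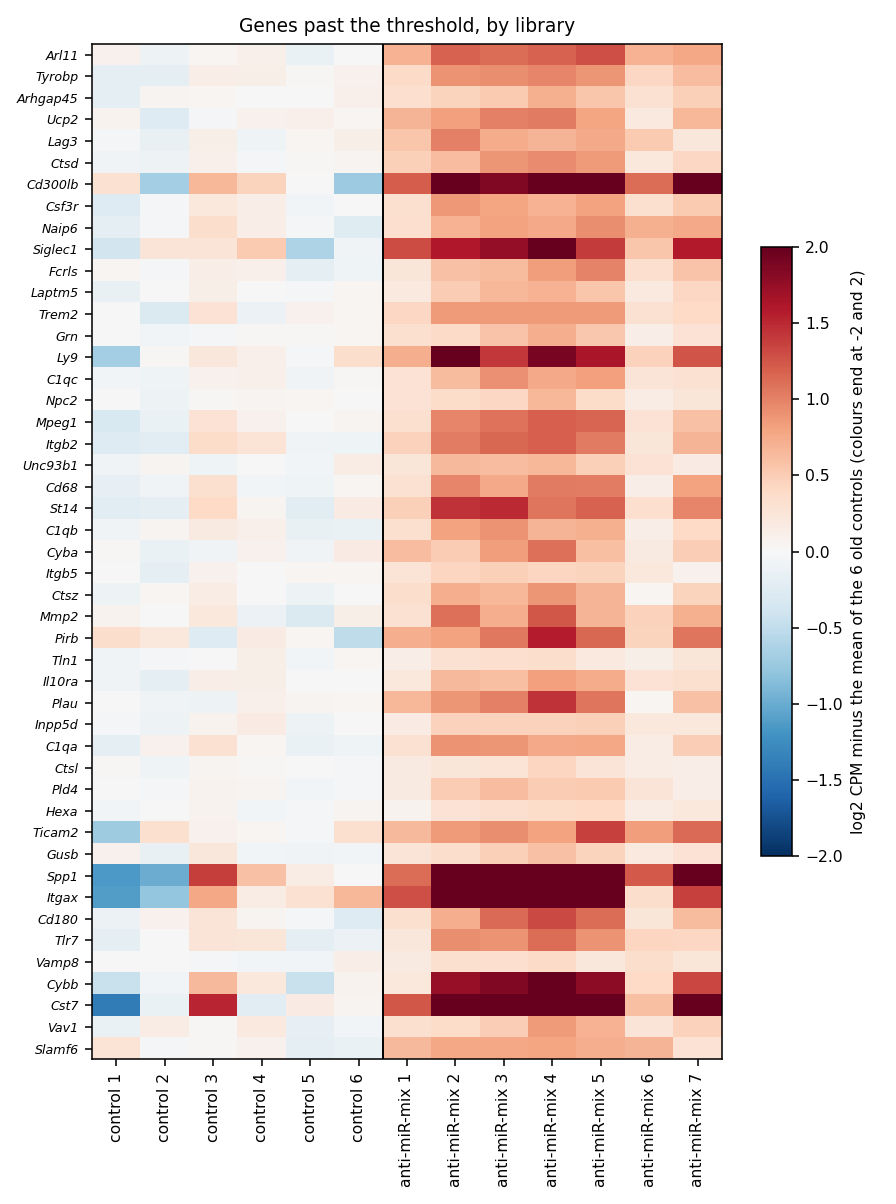
Log2 CPM of genes past the threshold (vertical, in order of p) in each library (horizontal), relative to the mean of the 6 old controls. Old anti-miR-mix replicates 2 to 5 are darkest and replicates 1 and 6 palest, and the colour scale ends at -2 and 2.

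The 48 genes did not move equally in all treated mice. Taken as the median over the 48 genes, the libraries lay above the control mean by 0.32 (replicate 1), 0.80 (replicate 2), 0.82 (replicate 3), 0.84 (replicate 4), 0.80 (replicate 5), 0.29 (replicate 6) and 0.48 (replicate 7) on the log2 scale, and the controls between -0.07 and 0.13. Replicate 4 was the highest treated library for 28 of the genes and replicate 6 the lowest for 28, and old control replicate 3 was the highest control for 29. These positions varied with processing group, whose part in them was not tested. Treated replicates 1 and 6 were the only treated libraries of groups 1 and 4, replicates 3, 4 and 5 formed group 3, and old control replicate 3 belonged to group 2. Within a processing group the treated libraries still lay higher. The difference of means was above 0 for 48 of 48 genes in group 1 (2 controls and 1 treated library), for 48 in group 2 (2 and 2) and for 46 in group 4 (2 and 1), with medians of 0.43, 0.51 and 0.29. As the genes were chosen on the same libraries, these values describe them only.

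Signalling through Fc receptors and the Trem2-Tyrobp complex, by which microglia recognise antibody, lipids and debris had higher values in every member tested. Of 16 genes tested, 4 were higher past the threshold (Tyrobp, Trem2, Inpp5d and Vav1). All 16 had an unadjusted p under 0.05 with a higher value, and the median log2 fold change was 0.48. For this list and those below, the matching shares over all genes tested were 0.248% and 6.7%. The lists were chosen with earlier results of these data known, so their counts describe them only. Trem2, the lipid receptor of the complex, ranged from 15.0 to 22.6 CPM in control (median 18.7) and from 22.9 to 33.3 CPM in treated libraries (median 33.1), with a log2 fold change of 0.66 (edgeR adjusted p = 0.0269, SE 0.11). Inpp5d, a phosphatase that opposes this signal, had a log2 fold change of 0.35 (SE 0.07), and Vav1, an exchange factor for small GTPases, one of 0.51 (SE 0.10). The kinase Syk (0.41), the adaptor Fcer1g (0.58) and the Fc receptors Fcgr1 (0.46), Fcgr2b (0.51), Fcgr3 (0.39) and Fcgr4 (0.68) did not pass. The summed level of the list ran from 7.04 to 7.32 log2 CPM in control and from 7.35 to 7.84 in treated libraries, without overlap. The median of the list was 0.45 with the merged library and 0.31 after adjustment for processing group.

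Because many of the 48 genes are known from the same cell lineage, their promoters were searched for short sequence motifs. RefSeq windows from 250 bases before to 50 after the gene start (GRCm38.p6) matched 34 of the 48 genes, and 13167 of the genes tested. The core bound by PU.1, the myeloid master factor, here GAGGAAGT on either strand, occurred in 7 of 34 windows (20.6%), against 3.46% of the genes tested and 3.69% of all genes with a window. The interferon-response core GAAANNGAA was found in 3 of 34 (8.82%, against 8.8%), the lysosomal CLEAR core TCACGTGA in 1 of 34 (2.94%, against 1.88%) and the AP-1 site TGACTCA in 2 of 34 (5.88%, against 4.73%). Motifs were counted separately, so 1 window may hold several. The motifs were chosen after the genes were known, no test was made, and a match is not evidence of binding. The 7 windows with the PU.1 core follow, read along the strand of the gene, with the core in capitals.
Inpp5d, chr1:87620282-87620309, plus strand, 20 bases before the start: tttctataatGAGGAAGTtctgtgcagc
C1qc, chr4:136893092-136893119, minus strand, 195 bases before the start: gacggcagacACTTCCTCattttggcac
Spp1, chr5:104434988-104435015, plus strand, 113 bases before the start: aaaaccagagGAGGAAGTgtaggagcag
Gusb, chr5:130003000-130003022, minus strand, 37 bases after the start: acttcaagcgACTTCCTCtttct
Pirb, chr7:3720485-3720512, minus strand, 120 bases before the start: tcacaccattGAGGAAGTcagagcatgg
Pld4, chr12:112760654-112760681, plus strand, 9 bases after the start: tcagaacaaaGAGGAAGTgaatggaagg
Vav1, chr17:57279079-57279106, plus strand, 11 bases before the start: agtcacagaaGAGGAAGTggtgttgtag
In C1qc and Gusb the core stood on the opposite strand, as ACTTCCTC.

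Among the 52 lists chosen in this way, the lysosomal genes had the most calls. Of 19 tested, 8 were higher past the threshold (Ctsd, Laptm5, Grn, Npc2, Cd68, Ctsz, Ctsl and Hexa), 18 had a higher value at an unadjusted p under 0.05, and the median log2 fold change was 0.38. Ctsd, the main aspartic protease of the lysosome, ranged from 164 to 189 CPM in control (median 176) and from 204 to 339 CPM in treated libraries (median 271), with a log2 fold change of 0.65 (edgeR adjusted p = 0.0213, SE 0.10). The groups did not overlap. Grn, which encodes progranulin, a regulator of lysosomal function, held a narrow range of 63.0 to 67.0 CPM in control and lay between 71.9 and 108 CPM in treated libraries (log2 fold change 0.44, SE 0.07). Npc2, which hands cholesterol out of the lysosome, had a log2 fold change of 0.36 (SE 0.06) and the protease Ctsl one of 0.24 (SE 0.05). Laptm5, a lysosomal membrane protein of immune cells, was at 0.48 (SE 0.08), and Cd68, a macrophage membrane glycoprotein, at 0.75 (SE 0.14). Lamp1 and Lamp2, the membrane proteins found on lysosomes of every cell type, had values of 0.14 and 0.16 and did not pass. The list median was 0.37 with the merged library and 0.25 after adjustment for processing group, and neither fit called a member.

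Complement followed, with 4 of 15 genes higher past the threshold, 12 at an unadjusted p under 0.05 with a higher value and a median log2 fold change of 0.59. The 3 chains of C1q, the recognition molecule of the classical pathway that also tags synapses, lie next to each other on chromosome 4 and had similar changes. C1qa ranged from 53.9 to 75.7 CPM in control and from 67.9 to 114 CPM in treated libraries, C1qb from 53.3 to 66.5 and from 64.8 to 110 CPM, and C1qc from 45.0 to 51.1 and from 56.7 to 89.5 CPM. Their log2 fold changes were 0.62 (SE 0.12), 0.58 (SE 0.11) and 0.59 (SE 0.10). Only C1qc had no overlap between groups. Itgb2, the beta chain shared by complement receptors of leukocytes, was higher by 0.86 (SE 0.16). The median of the list was 0.35 after adjustment for processing group, and neither that fit nor the one with the merged library called a member. Downstream, C3 had a log2 fold change of 1.28 and C4b of 0.40 without passing, and C2 (-0.26) was the only member below 0.

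The receptors and oxidase of phagocytes were represented among the genes past the threshold by several members. Of 20 genes of Toll-like receptor signalling, 2 passed and 10 had a higher value at an unadjusted p under 0.05, with a median of 0.35, or 0.17 after adjustment for processing group, where 0 passed. Tlr7, the endosomal sensor of single-stranded RNA, ranged from 3.85 to 5.32 CPM in control and from 5.17 to 9.68 CPM in treated libraries (log2 fold change 0.73, SE 0.14). Unc93b1, which escorts Tlr7 and related receptors to the endosome, had a log2 fold change of 0.46 (SE 0.08). Outside the list, Ticam2, an adaptor of Tlr4, was higher by 1.04 (SE 0.20), with 0.213 to 0.501 CPM in control and 0.642 to 1.10 CPM in treated libraries, but it overlaps Tmed7 on the same strand, and their reads may not be separable. Cybb and Cyba, the membrane subunits of the NADPH oxidase that makes superoxide, were higher by 1.49 (SE 0.29) and 0.65 (SE 0.12). The adaptor Myd88 (0.14) did not pass, nor did Irak1 (-0.01) and Traf6 (0.01), which act below it.

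The genes that microglia raise around plaques and damaged myelin, known as disease-associated microglia genes, had larger fold changes. Of 14 tested, 3 were higher past the threshold and 11 had a higher value at an unadjusted p under 0.05, and the median log2 fold change was 1.02. Spp1, encoding osteopontin (chromosome 5, 104435118 to 104441050, plus strand), was measured at 5.71, 6.33, 33.1, 19.1, 14.1 and 12.8 CPM in old control replicates 1 to 6 and at 27.4, 51.9, 59.1, 101, 61.2, 29.7 and 71.0 CPM in old anti-miR-mix replicates 1 to 7. The groups overlapped, since old control replicate 3 exceeded treated replicates 1 and 6. Its log2 fold change was 1.93 (edgeR adjusted p = 0.0428, SE 0.37), and 1.46 after adjustment for processing group (adjusted p = 0.0498). Cst7, encoding cystatin F, an inhibitor of cathepsins, ranged from 0.558 to 4.64 CPM in control (median 1.53) and from 2.43 to 12.2 CPM in treated libraries (median 9.72), with a log2 fold change of 2.09 (SE 0.41). Itgax, the integrin chain CD11c, was higher by 1.91 (SE 0.37). Clec7a (1.61), Lgals3 (1.99) and Gpnmb (1.22) did not pass. The median of the list was 0.99 with the merged library and 0.44 after adjustment for processing group, and within groups 1, 2 and 4 the median differences were 0.38, 0.65 and 0.09, so the size of this difference moved with processing group and its part in the result was not tested.

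Homeostatic microglia markers, which define resting microglia, differed less. Of 15 tested, 1 was higher past the threshold (Fcrls, log2 fold change 0.61, SE 0.10), 9 had a higher value at an unadjusted p under 0.05, and the median was 0.18, or 0.12 after adjustment for processing group, where 0 passed. Csf1r, the survival receptor of microglia, ranged from 116 to 129 CPM in control and from 130 to 173 CPM in treated libraries without overlap, but did not pass (log2 fold change 0.31, edgeR adjusted p = 0.0569, SE 0.07). Cx3cr1 was at 0.20, Tmem119 at 0.07 and P2ry12 at 0.03. The summed level of the list ran from 9.25 to 9.43 log2 CPM in control and from 9.34 to 9.70 in treated libraries. For comparison, 46.9% of all genes had a value above 0, against 15 of 15 here and 14 of 14 of the disease-associated genes.

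**Figure D3:**
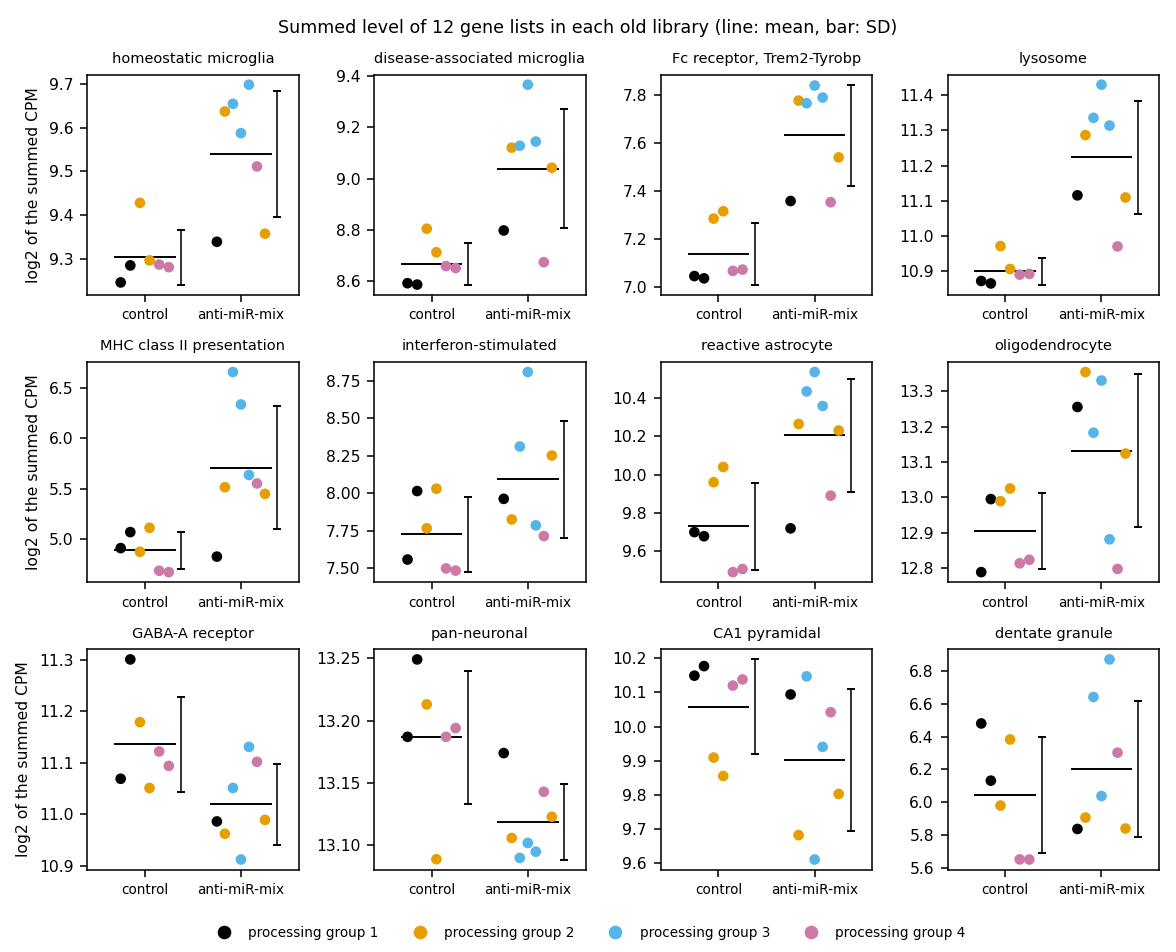
Log2 of the summed CPM of 12 gene lists in each old library (y axes, ranges differ between panels), coloured by processing group, with the mean as a line and the SD as a bar (n = 6 and 7). Of the 12 lists, only the Fc receptor and Trem2-Tyrobp list has no overlap between groups (7.04 to 7.32 against 7.35 to 7.84).

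Markers of blood-borne and border cells were also examined, since dissected tissue can hold them. Of 7 tested monocyte and neutrophil genes, 1 passed (Csf3r, which microglia also express) and 6 had a higher value at an unadjusted p under 0.05, with a median log2 fold change of 1.22. All 7 tested members had values above 0, from 0.63 to 2.56. The neutrophil genes Ly6g and Retnlg were too low to be tested, with 1 read and 9 reads in all 13 libraries together. Of the 12 tested markers of border-associated macrophages 1 passed (Siglec1) and 3 were at an unadjusted p under 0.05, with a median of 0.28, and Cd163 (0.08), Pf4 (0.14) and Lyve1 (-0.32) did not pass. T and NK cell genes gave 0 calls among 12 in edgeR and in DESeq2 and 6 at an unadjusted p under 0.05, with a median of 0.63, which was 0.26 after adjustment for processing group and 0.24 with the merged library as well. Cd3d encodes a chain of the T cell receptor complex. It lay between 0.0333 and 0.189 CPM in control and between 0.0895 and 0.484 CPM in treated libraries. With 1 to 5 reads per control library and 3 to 16 per treated library, Cd3d met the read filter mainly through treated libraries. The filter can favour higher values in low-count lists such as these, and its part in their medians and counts was not tested. Red blood cell genes had a median of 0.09 and 0 of 5 at an unadjusted p under 0.05, but the median was 0.31 after adjustment for processing group, and within groups 1, 2 and 4 it was 0.40, 0.01 and 0.66. Leptomeningeal fibroblast genes had a median of 0.54, with 0 of 10 past the threshold, 9 above 0 and Dcn (-0.38) below. Within groups 1, 2 and 4 the median was -0.16, 0.07 and 1.51. Col3a1 lay between 0.792 and 1.66 CPM in control, and at 21.3, 11.9 and 3.55 CPM in treated replicates 4, 7 and 6. In the other treated libraries it was at most 1.45 CPM. The summed level of the monocyte and neutrophil list was 3.65 to 4.28 log2 CPM in control and 4.12 to 5.08 in treated libraries. The part of all these cells in the other results was not tested.

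Genes of antigen presentation and of the interferon response had positive medians, with 0 calls in edgeR, whereas DESeq2 called 4 genes of MHC class II presentation, 2 of class I and 0 of the interferon response. Of 9 genes of MHC class II presentation 7 had a higher value at an unadjusted p under 0.05, with a median log2 fold change of 0.87. Cd74, the invariant chain, ranged from 5.44 to 8.48 CPM in control (median 6.69) and from 6.22 to 40.8 CPM in treated libraries (median 15.4), and 6 of 7 treated libraries lay above the highest control (log2 fold change 1.46, edgeR adjusted p = 0.0599, SE 0.32). Of 14 genes of MHC class I presentation 11 had a higher value at an unadjusted p under 0.05 (median 0.48), led by H2-D1 (0.61, SE 0.15). The H2 genes resemble each other closely, so their reads may be shared. Of 20 interferon-stimulated genes 13 had a higher value at an unadjusted p under 0.05 (median 0.65), with Irf9, a subunit of the interferon-activated transcription factor, at 0.34 (SE 0.10). After adjustment for processing group the medians were 0.59, 0.19 and 0.24. Within groups 1, 2 and 4 the class II medians were -0.11, 0.64 and 0.92, with 3 of 9 members above 0 in group 1.

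Chemokines differed among themselves. Ccl6 (1.00), Ccl3 (1.48), Ccl4 (1.39), Ccl9 (0.60) and Cxcl16 (1.03), which myeloid cells release, had higher values at an unadjusted p under 0.05, as did Ccl5 (0.91), whereas Cxcl13 (-0.80), Cxcl1 (-0.45) and Ccl12 (-0.24) had values below 0 and did not pass. In edgeR 0 of 16 chemokine genes passed and in DESeq2 5. The list median was 0.46, and -0.02 after adjustment for processing group. Among 10 genes of inflammatory cytokine and NF-kB signalling 0 passed in edgeR and in DESeq2, the median was 0.21 (0.04 after adjustment for processing group), and 1 had an unadjusted p under 0.05, Tnf (log2 fold change 1.36, SE 0.53). Il1b had a value of 0.38 and Nfkbia, a target of NF-kB, one of 0.11. Il6 was too low to be tested, with 39 reads in all. Of 18 genes of the leukocyte cytoskeleton and of adhesion 1 passed (Itgb2) and 15 had a higher value at an unadjusted p under 0.05, with a median of 0.50, which was 0.28 after adjustment for processing group, where 0 passed, as with the merged library. Lipid handling genes had a median of 0.17 (0.09 after adjustment for processing group), with 0 of 14 past the threshold and 6 at an unadjusted p under 0.05 in edgeR and 4 past it in DESeq2. Ch25h, which makes 25-hydroxycholesterol, was at 1.36 (SE 0.32), and Apoe, the main lipid carrier of the brain, at 0.31.

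A further 24 of the 48 genes were in none of the lists, among them the SLAM family receptors Ly9 (1.46, SE 0.25) and Slamf6 (0.72, SE 0.15), whose groups did not overlap, the pore-forming protein gene Mpeg1 (0.84, SE 0.15) and the receptors Cd180, Pirb, Il10ra and Cd300lb. Cd300lb, an activating receptor, had the largest fold change of the 48 but lay at only 0.0333 to 0.189 CPM in control and 0.281 to 0.893 CPM in treated libraries. Ly9 overlaps Cd244a on the opposite strand, as do Grn with Fam171a2, Ctsz with Nelfcd, Hexa with Tmem202, Tln1 with Creb3, Cd180 with Mast4, Csf1r with Hmgxb3 and Gfap with Gm26668, whereas Irf9 overlaps Rnf31 and Cntn3 overlaps Gm44189 on the same strand. Extracellular proteases were present as Plau (0.88, SE 0.17), the urokinase gene, Mmp2 (0.78, SE 0.14), a gelatinase, and St14 (1.08, SE 0.20), a serine protease of cell surfaces. Genes that many cell types express had small changes with small errors, such as Tln1, encoding talin (0.24, SE 0.05), Itgb5 (0.34, SE 0.06) and Vamp8 (0.29, SE 0.06).

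Among other glia, reactive astrocyte genes had 0 calls of 11 in edgeR and 2 in DESeq2, 6 at an unadjusted p under 0.05 with a higher value, and a median log2 fold change of 0.51, which was 0.06 after adjustment for processing group. Gfap, the intermediate filament of astrocytes, ranged from 513 to 669 CPM in control and from 604 to 977 CPM in treated libraries, with 6 of 7 above the highest control (log2 fold change 0.43, edgeR adjusted p = 0.0904, SE 0.10). Vim, another intermediate filament, was at 0.84 (SE 0.20). Astrocyte identity genes, by contrast, had a median of 0.05 and 0 of 10 at an unadjusted p under 0.05, with the glutamate transporter Slc1a2 at -0.02 (SE 0.05). Oligodendrocyte genes were above 0 in 13 of 13 cases, 8 of them at an unadjusted p under 0.05, with a median of 0.22, 0 calls in edgeR and 1 in DESeq2. Cldn11, the tight junction protein of myelin, was at 0.45 (SE 0.10) and Mbp, a major myelin protein, at 0.25 (SE 0.09). Within group 4 the oligodendrocyte median was -0.02, against 0.32 and 0.21 in groups 1 and 2. Endothelial, pericyte and precursor lists had medians of 0.03, 0.04 and 0.11.

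**Figure D4:**
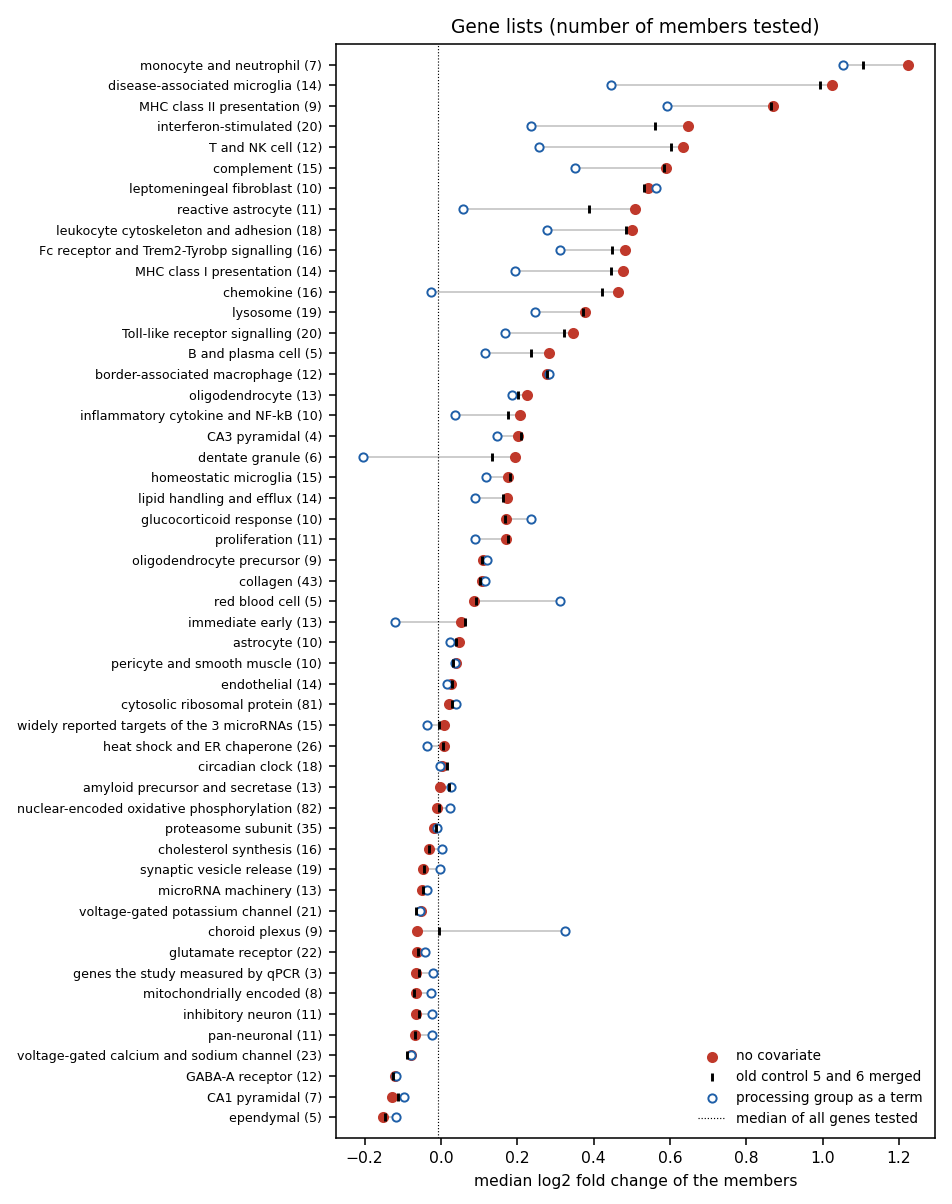
Median log2 fold change of the members of each of 52 gene lists (x axis), with the number of members tested in brackets. Red points are the fit without covariate, black ticks the fit with old control replicates 5 and 6 merged and open blue circles the fit after adjustment for processing group, which lie nearer to 0 for most immune lists and near -0.2 for dentate granule genes.

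No gene was lower at an adjusted p under 0.05 in edgeR, and the lowest adjusted p among genes with lower values was 0.0599. The 12 protein-coding genes with the lowest p and a mean of at least 0.5 CPM included Cdh6, Syt9, Slc35f1, Smim10l2a, Magee2, Parm1, Dlk1, Cntn3, Nos1, Tiprl and Zfp763. Cdh6, an adhesion protein of the cadherin family (chromosome 15, 13028701 to 13173675, minus strand), ranged from 8.67 to 12.5 CPM in control (median 10.3) and from 6.35 to 8.54 CPM in treated libraries (median 8.11) without overlap. Its log2 fold change was -0.39 (edgeR adjusted p = 0.0599, SE 0.09), and -0.35 after adjustment for processing group. Syt9, a synaptotagmin, had a log2 fold change of -0.28 (SE 0.06) and also did not overlap, with 10.3 to 12.5 CPM in control and at most 10.1 CPM in treated libraries.

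Several of these 12 genes act in neurons. Nos1, neuronal nitric oxide synthase (chromosome 5, 117781032 to 117958840, plus strand), ranged from 120 to 139 CPM and from 95.7 to 120 CPM (log2 fold change -0.24, SE 0.06), and it overlaps Gm26995 on the opposite strand. Cntn3, a contactin of the neuronal surface, was at -0.22 (SE 0.05). The largest of the 12 values belonged to Dlk1, an imprinted membrane protein gene of the Delta-like family, with 22.7 to 35.3 CPM in control and 13.7 to 27.3 CPM in treated libraries (log2 fold change -0.63, SE 0.16). In each of processing groups 1, 2 and 4, 12 of the 12 genes had a lower mean in treated libraries, with median differences of -0.14, -0.23 and -0.18. The genes were chosen on the same libraries.

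By other tools some lower genes passed. DESeq2 called 17 (0.0879% of genes), led by Cdh6 (adjusted p = 0.00353) and Tmx4 (0.00635), and with Syt9, Slc35f1, Parm1, Nos1, Cntn3 and Magee2 among them. In the edgeR test the 17 genes had adjusted p values between 0.0599 and 0.344. The groups did not overlap, with lower values under treatment, for 17 genes as well, among them Cdh6, Syt9, Magee2, Caln1, Tmx4, Grid1, Adam22 and Pid1. Caln1, encoding a calcium-binding protein of neurons and overlapped by A330070K13Rik on the opposite strand, ranged from 398 to 423 CPM in control and from 341 to 394 CPM in treated libraries (log2 fold change -0.15, SE 0.04), and Adam22, a synaptic receptor of Lgi1, from 324 to 342 and from 298 to 322 CPM (-0.09, SE 0.03). Krt23 (-1.17, SE 0.26) and BC053393 (-0.95, SE 0.23) also did not overlap but lay below 0.5 CPM.

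Neuronal lists had small negative medians. Of 12 subunits of the GABA-A receptor, the chloride channel of fast inhibition, 11 had values below 0 and 5 had a lower value at an unadjusted p under 0.05, against 3.71% of all genes and 53.1% of all genes below 0. The median log2 fold change was -0.12, with the merged library as well and after adjustment for processing group. Gabrb2, a common beta subunit, ranged from 153 to 183 CPM in control and from 136 to 162 CPM in treated libraries, with 6 of 7 below the lowest control (log2 fold change -0.16, edgeR adjusted p = 0.206, SE 0.05). Gabra3 (-0.16), Gabra2 (-0.16) and Gabrg3 (-0.14) were among the other members at an unadjusted p under 0.05, and Gabrd (0.13), the subunit of extrasynaptic receptors, was the only one above 0. Within processing groups 1, 2 and 4 the medians were -0.17, -0.15 and -0.03.

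Of 22 glutamate receptor genes 18 had values below 0 and 1 a lower value at an unadjusted p under 0.05, Grm5 (-0.17, SE 0.08). Of 23 voltage-gated calcium and sodium channel genes 21 were below 0 and 2 at an unadjusted p under 0.05, with Scn2a, a sodium channel of excitatory axons, at -0.13 (SE 0.05). Pan-neuronal genes were below 0 in 11 of 11 cases with a median of -0.07 (-0.02 after adjustment for processing group) and 0 at an unadjusted p under 0.05, among them Snap25 (-0.06, SE 0.04), Syt1 (-0.08) and Map2 (-0.08). The summed pan-neuronal level was 13.09 to 13.25 log2 CPM in control and 13.09 to 13.17 in treated libraries, and the part of the neuronal share of the RNA in the other neuronal lists was not tested. CA1 pyramidal genes had a median of -0.13, with Wfs1 at -0.20 (SE 0.08) and Mpped1 at -0.14 (SE 0.06). Inhibitory neuron genes had a median of -0.07 (-0.02 after the same adjustment), with Cnr1, the cannabinoid receptor, at -0.18 (SE 0.06) and Gad2 at -0.10. Dentate granule genes were at 0.19, and at -0.20 after adjustment for processing group.

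Housekeeping and stress lists lay near the median of all genes. Cytosolic ribosomal protein genes had a median of 0.02 (81 tested), nuclear-encoded genes of oxidative phosphorylation -0.01 (82), proteasome subunits -0.02 (35), heat shock and chaperone genes 0.01 (26), circadian clock genes 0.00 (18) and cholesterol synthesis genes -0.03 (16), with 0 calls in edgeR and in DESeq2 and 0 to 2 genes of each list at an unadjusted p under 0.05. Immediate early genes, which follow recent neuronal activity, had a median of 0.05 with 0 of 13 at an unadjusted p under 0.05, and the sign turned after adjustment for processing group (-0.12). Within group 4, 13 of 13 were below 0 with a median of -0.43. The single genes included Fos at 0.04, Arc at -0.01 and Npas4 at -0.30 (SE 0.16). Mitochondrially encoded genes had a median of -0.07 (8 tested, -0.03 after adjustment for processing group), and 5 more of them had 0 reads in every library.

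Genes tied to the 3 microRNAs were examined last. Of 15 genes that are widely reported as their targets, 0 passed in edgeR and in DESeq2, 0 had an unadjusted p under 0.05, and the median log2 fold change was 0.01 (-0.04 after adjustment for processing group). Irak1, a target of miR-146a-5p in Toll-like receptor signalling, ranged from 68.7 to 72.5 CPM in control and from 66.0 to 73.8 CPM in treated libraries (log2 fold change -0.01, SE 0.03), and Traf6 from 28.1 to 31.9 and from 27.8 to 32.9 CPM (0.01, SE 0.05). Dnmt1 (-0.04), a target of miR-148a-3p, and Gria2 (-0.13), a target of miR-181a-5p, did not pass. Of 13 genes of microRNA processing and silencing 0 passed in edgeR and in DESeq2 and 1 had an unadjusted p under 0.05, with Ago1, an Argonaute that holds microRNAs, at -0.07 (SE 0.03) and Dicer1 at 0.01. Lrrk2, Cadm3 and Slc6a11 did not pass, and all 3 had values below 0. By qPCR the study reported that the anti-miR-mix reinstated expression of these genes in old mice. From RNA sequencing it also reported a co-expression module of synapse and cognition genes that was lower in old control than in young mice. The anti-miR-mix was reported to restore that module in part. The module was not examined here. Lrrk2 ranged from 44.6 to 52.8 CPM in control and from 40.4 to 52.2 CPM in treated libraries (log2 fold change -0.12, edgeR adjusted p = 0.52, SE 0.06), Cadm3 was at -0.06 (SE 0.04) and Slc6a11 at -0.02 (SE 0.04). After adjustment for processing group Slc6a11 and Irak1 were at 0.01 each and Traf6 at -0.06.

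**Figure D5:**
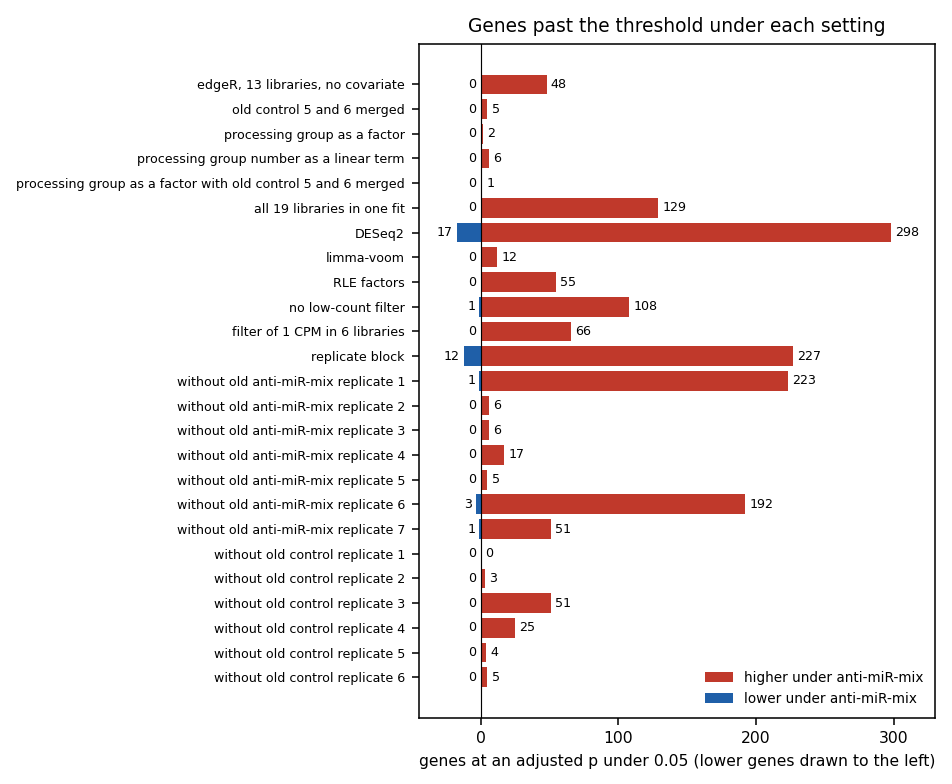
Number of genes past an adjusted p under 0.05 (x axis, higher genes to the right and lower genes to the left) in each fit. The number of higher genes runs from 0 without old control replicate 1 to 298 with DESeq2, and lower genes appear with DESeq2, the replicate block, the unfiltered table and in 3 of the fits without 1 library.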

How the data were processed

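The authors prepared polyadenylated RNA libraries (TruSeq) of CA1, aligned single-end reads to mm10 with STAR 2.5.2b and deposited raw counts per Ensembl gene from featureCounts (Subread 1.5.1). Strand and multi-mapping options are not given in the sources used here. The deposited log2 table equals log2(CPM + 1) less a slope per gene times the processing group, with CPM there taken without TMM factors. It served only to read that group. A total of 0 columns were left unassigned.

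Groups followed the library descriptions, which give a group and a number. Each library was taken as a separate tissue sample. P-values measure the spread between libraries. If old control replicates 5 and 6 share a source, the fits without merging count it more than once. Counts were tested with edgeR 4.0.16 (R 4.3.3) on the 13 old libraries with TMM factors and no covariate, with Benjamini-Hochberg adjustment over all genes tested and a threshold of 0.05. Log2 CPM used a prior count of 2. The script was tested on simulated data. Fold changes in the text are log2, anti-miR-mix over control, and SE is the standard error. Symbols and coordinates came from GENCODE M21 (GRCm38). A count of 0 allows up to 3 reads. Alternatives were DESeq2 1.42.0, limma 3.58.1 with voom, other factors and filters, processing group as a term, all 19 libraries, the replicate block, merging of old control replicates 5 and 6 (their counts summed), and leaving out each library.

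Named genes were the 12 protein-coding genes of lowest p in each direction with a mean of at least 0.5 CPM, up to 5 called members of each list or else the one of lowest p, the most abundant member of cell type lists, and Lrrk2, Cadm3, Slc6a11, Irak1 and Traf6. Further genes were named after their values were seen. The members and the 52 lists were chosen with earlier results of these data known. Some named genes are not reported here, but they stay in the counts and medians.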

Additional observations from a re-analysis of the deposited data

Results flagged for a closer look

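In 21 of 288 groups of values examined, the highest or lowest library lay far from the other libraries of its group by Dixon's criterion, and chance gives about 1 in 20. All values are log2 CPM. Among old controls, replicate 1 was low for Arhgap45 (3.38), Lrrk2 (5.48), Ly9 (0.029) and Ticam2 (-1.86) and high for Hbb-bs (4.80). Replicate 2 was high for Gabrb2 (7.52) and Kcnh7 (7.87) and low for Itgb5 (5.36). Replicate 3 was high for the summed homeostatic microglia markers (9.43). Replicate 4 was high for Dnah12 (0.65) and low for Cadm3 (8.44) and for the summed endothelial markers (8.43), and replicate 6 was high for Vamp8 (2.94). Among old anti-miR-mix libraries, replicate 1 was low for Naip6 (0.94) and Ptprz1 (8.17), and replicate 2 was high for Cox6b2 (1.62). Replicate 3 was high for Per2 (6.20) and low for Rps23 (0.093). Replicate 4 was low for Cdh6 (2.68), replicate 5 high for Gabrb2 (7.34) and replicate 7 low for Slamf6 (-0.50).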

How the results depend on the processing

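The number of higher genes, 48 in edgeR, was 5 with old control replicates 5 and 6 merged, 2 with processing group as a term, 1 with both, 6 with its number as a linear term, 129 with all 19 libraries, 298 with DESeq2, 12 with limma-voom and 108 without the low-count filter. The lower genes, 0 in edgeR, were 17 with DESeq2 and 1 without the filter. With the replicate block 227 genes were higher and 12 lower. The deviations of libraries sharing a number correlated between -0.11 and 0.23 over the 6 numbers, so the numbers were not taken to pair mice. Leaving out 1 library gave 0 to 223 higher genes and 0 to 3 lower genes. Non-overlapping genes then numbered 100 to 190, against 90 with all 13, but this number cannot fall when a library is left out. The number of higher genes fell to 0 to 25 without old control replicates 1, 2, 4, 5 or 6 or old anti-miR-mix replicates 2 to 5. It rose to 223 and 192 without old anti-miR-mix replicates 1 and 6. The cause was not tested. A few values near 0 changed sign. With processing group as a term Ank was at -0.0012, Grik4 -0.0024, Prox1 -0.0297, Slc6a11 0.0094, Irak1 0.0069 and Traf6 -0.0567. With the merged library added to that term Prox1 was at -0.0826, Slc6a11 0.0108, Irak1 0.0085 and Traf6 -0.0598, and with the merged library alone Traf6 was at -0.0069. Over the fits without 1 library Ank ran from -0.0004 to 0.0433, Hbb-bs from -0.0476 to 0.3408, Slc1a2 from -0.0385 to 0.017, Ptprz1 from -0.0603 to 0.016 and Traf6 from -0.0172 to 0.03. Genes under 1 CPM rest on few reads.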
